A study of Homo sapiens with 6 samples.

Results

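The 30 genes described here encode the enzymes that build cholesterol and fatty acids, together with the proteins that control them. They were chosen by name, as a list of pathway genes, by a rule that uses no measured value. Earlier results of these data were known when the list was chosen, so the counts below describe it and do not test it. All 30 were among the 15897 genes listed, and all 30 passed the filter on low values that left 14068 genes for testing. By role, 7 genes belong to the mevalonate steps, 3 to the squalene and lanosterol steps, 8 to the steps after lanosterol, 5 to the control of the pathway and sterol transport, and 7 to fatty acid synthesis and desaturation.

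Cholesterol is made from acetyl-CoA by way of mevalonate, the isoprenoid diphosphates, squalene and lanosterol. Fatty acids are made from the same acetyl-CoA, and are then desaturated and elongated. Transcription of both sets of enzymes is driven by the sterol regulatory element-binding proteins (SREBPs), which are held in the endoplasmic reticulum by SCAP and the INSIG proteins when sterols are plentiful, and are released by proteolysis in the Golgi when sterols run low. Lung alveolar cells use the fatty acid branch for surfactant lipids, and tumour cells often rely on both branches for membrane growth.

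The libraries were labelled as H1650, an established human lung adenocarcinoma cell line, with 3 control libraries (genotype given as wild type) and 3 shSETD2 libraries. SETD2 is the methyltransferase that trimethylates lysine 36 of histone H3, and the comparison asks how transcript levels differ after it is depleted by short hairpin RNA. Per the study's methods, stable lines were made with lentiviral hairpins in several constructs, and the labels do not say which construct each shSETD2 library carries or whether the control cells carried an empty vector. No label says that the 3 libraries of a group came from separate cultures, so the p-values measure only the spread between these libraries, which may be technical. Levels are given as FPKM, fragments mapped to a gene scaled to its transcript length and to the size of the library, and the number of fragments behind each value is unknown.

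The 2 groups stood far apart over the whole transcriptome. Across genes, Pearson's r of log2(FPKM + 1) was 0.982 to 0.990 between libraries of one group and 0.701 to 0.707 between libraries of different groups. The control libraries held SETD2 itself at 18.0, 10.2 and 17.6 FPKM, and the shSETD2 libraries at 8.97, 8.09 and 12.2 FPKM. The groups overlapped for SETD2 (log2 fold change -0.58, adjusted p = 0.0641, limma, and -0.25 with adjusted p = 0.377 under median ratio scaling), and the group names below are those of the labels. Defining markers of lung epithelium were largely absent, with 2 of 14 listed and a summed level of 3.25 to 4.77 FPKM in control and 0.384 to 0.529 in shSETD2 libraries. NKX2-1, the lung lineage transcription factor, was at 1.44 to 1.80 FPKM in control libraries and listed at 0 in shSETD2 libraries. General epithelial markers, of which 11 of 14 were listed, summed to 17.2 to 18.7 FPKM in control and to 408.3 to 461.7 FPKM in shSETD2 libraries, a sum carried by the keratins KRT18, KRT8 and KRT7. Of the 7 epithelial markers tested, 5 rose and 2 fell, the cadherin CDH1 from a mean of 1.27 to 0.0120 FPKM and the splicing factor ESRP2 from 1.93 to 0.0219 FPKM, and EPCAM, which was not tested, was at 0.710 and 0.220 FPKM. Of 14 embryonic and renal epithelial markers, 12 were listed, and they summed to 50.5 to 55.3 and 60.5 to 71.7 FPKM. LIN28B, a regulator of fetal growth, was at a mean of 21.5 FPKM in control and listed at 0 in shSETD2 libraries, while PAX8, a kidney and thyroid transcription factor, was at 0.0172 and 30.8 FPKM. Of 12 mesenchymal markers, 11 were listed, with sums of 123.5 to 138.2 and 170.1 to 180.3 FPKM that were carried by VIM. Of the 9 tested, 5 fell and 3 rose, with SNAI2 at a mean of 14.3 FPKM in control and 0.0107 in shSETD2 libraries, and TWIST1 at 7.91 FPKM and listed at 0. Whether the libraries of both groups come from the same cell line was not tested. A difference in cell identity and the depletion of SETD2 cannot be told apart in these 2 groups, so each difference below is one between the libraries as labelled. In bulk RNA fewer cells of a type and less RNA per cell cannot be told apart.

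Most of the 30 genes of cholesterol and fatty acid synthesis were higher in shSETD2 libraries, while lower levels were the more frequent call among all genes. By limma, 22 of the 30 genes rose, against 26.8% of all genes tested, and 5 fell (IDI1, TM7SF2, SC5D, SCAP and ELOVL6), against 51.8% of all genes. A change in either direction was called for 78.6% of all genes. SQLE, INSIG1 and FADS2 did not pass the test. The log2 fold changes of the 30 genes had a median of 0.57, beside -0.29 over all genes, and 24 of the 30 values lay above that of all genes. Every shSETD2 library was above every control library for 22 of the 30 genes (27.9% of all genes), the reverse held for 7 (53% of all genes), and the groups overlapped for INSIG1 alone. Groups that did not overlap were found for 80.9% of all genes. A rise with a log2 fold change of at least 1 was called for 11 of the 30 genes, against 11.2% of all genes. The 30 genes were also more abundant, with a median level of 15.8 FPKM beside 5.05 FPKM over all genes tested. With a mean of at least 5 FPKM required, calls higher made up 42.5% of all calls and 87% among the 30 genes. Over all genes tested these shares were 34.1% and 81.5%.

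Summed over the 30 genes, the level went from 551.5 ± 20.9 FPKM in control to 842.6 ± 14.7 FPKM in shSETD2 libraries (mean ± SD, n = 3, as for all such values below). These genes held 0.236 to 0.255% of all listed FPKM in control and 0.376 to 0.390% in shSETD2 libraries. The difference was not spread evenly over the pathway, since the summed mevalonate genes reached 1.94 times their control level, the genes after lanosterol 1.83 times, and the squalene and lanosterol genes 1.27 times. The summed fatty acid genes reached 1.41 times their control level.

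The direction depends in part on how the libraries are scaled to one another. Median ratio scaling moved the median over all genes from -0.29 to -0.01 on the log2 scale, and the median over the 30 genes from 0.57 to 0.90. Under it 37.7% of all genes were called higher and 38.3% lower, and of the 30 genes 23 rose and 4 fell. Calls higher made up 34.1% of all calls with the deposited FPKM and 49.6% with median ratio scaling, and 81.5% and 85.2% among the 30 genes. Under quantile normalization 20 of the 30 genes rose and 6 fell, and of all genes 4569 rose and 6012 fell. Calls higher then made up 43.2% of all calls and 76.9% among the 30 genes.

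**Figure D1:**
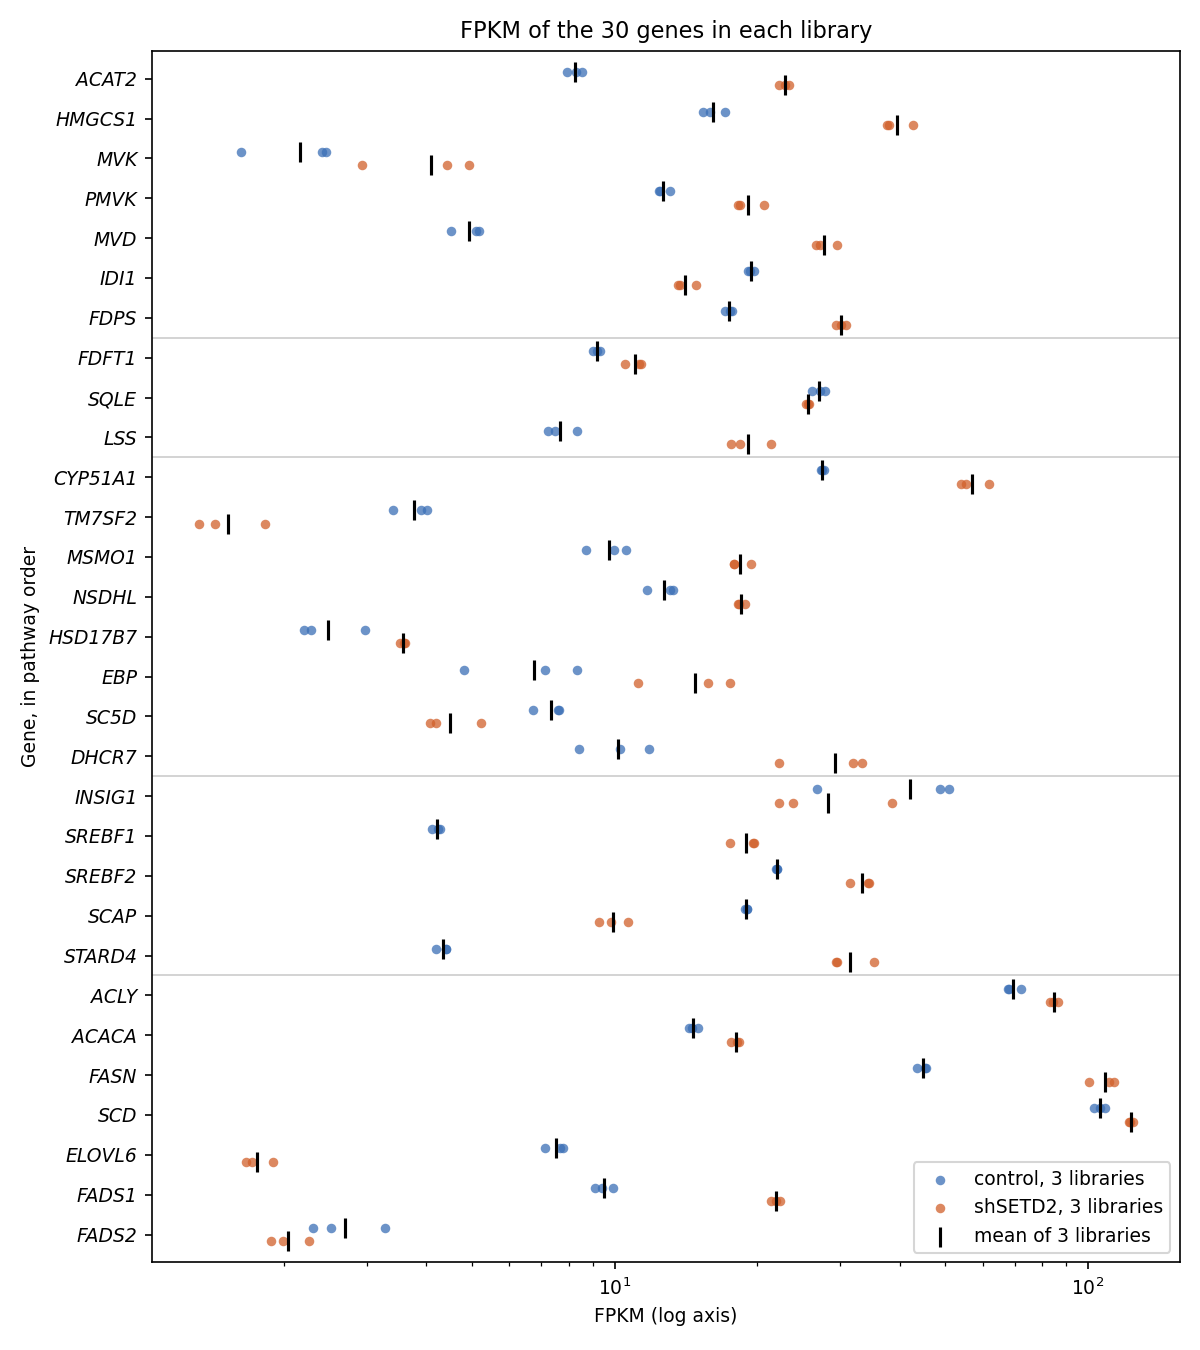
FPKM (log axis) of the 30 genes in pathway order from top to bottom, with grey lines between the 5 roles; each point is 1 library, blue for control and orange for shSETD2, and black ticks are means of 3 libraries. STARD4, MVD and SREBF1 show the widest gaps upward and ELOVL6 the widest downward, and the points of the groups overlap for INSIG1 only.

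**Figure D2:**
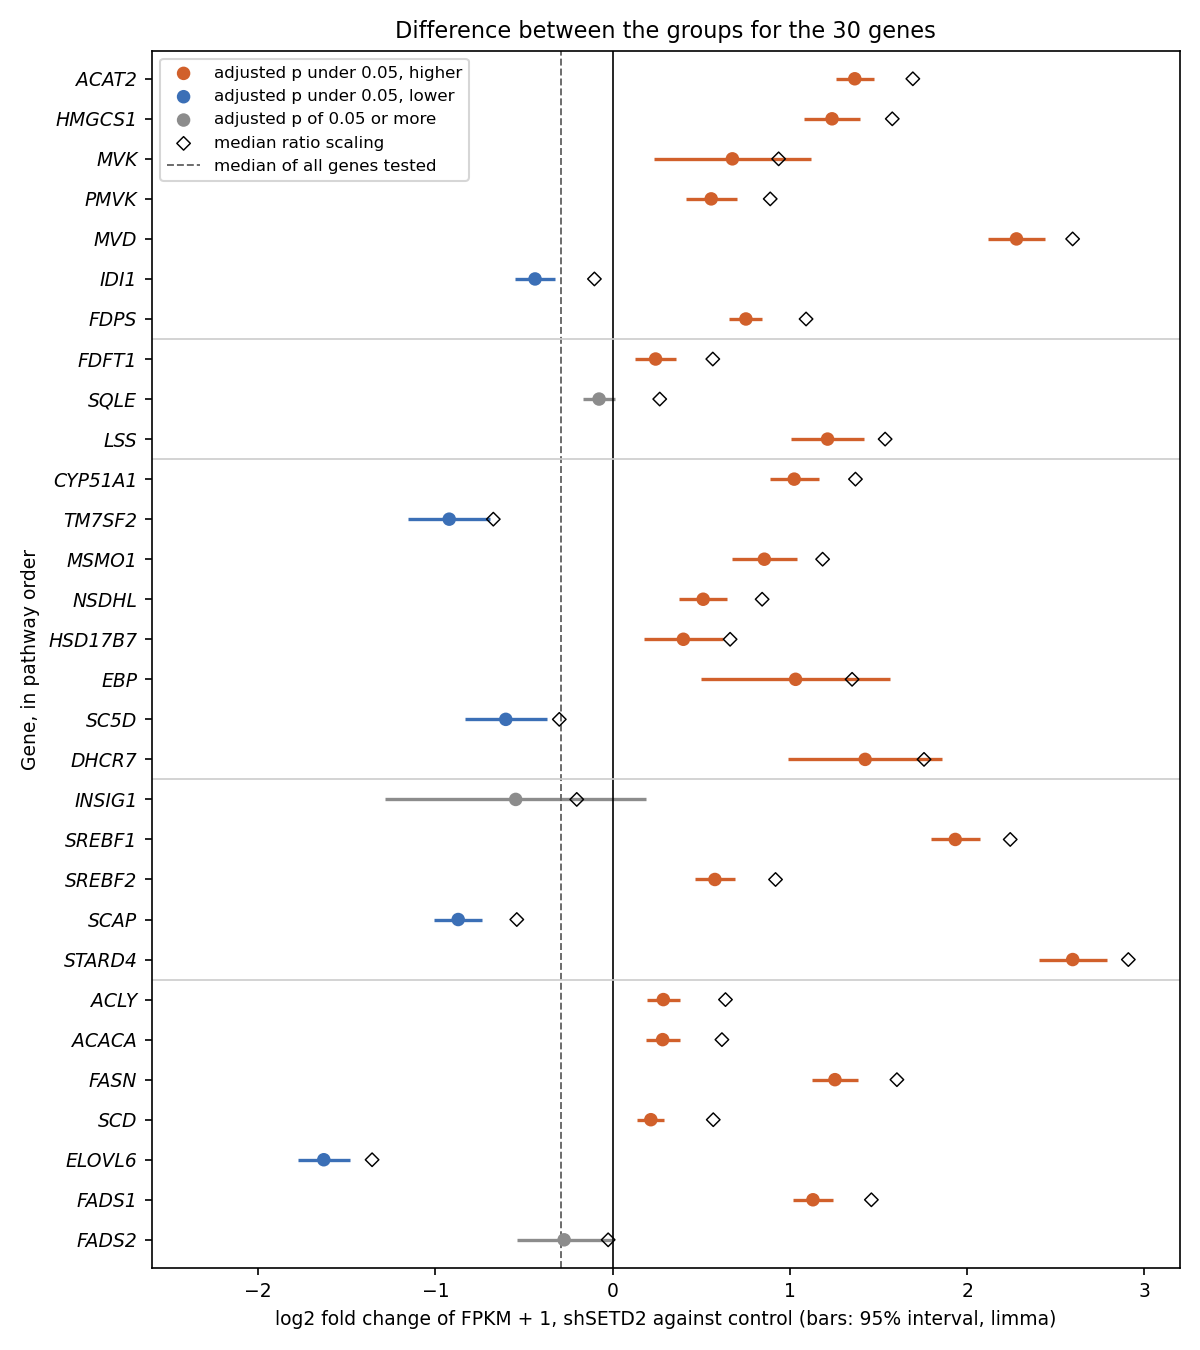
Log2 fold change of FPKM + 1 between shSETD2 and control for each of the 30 genes (points, coloured by the limma call), with 95% intervals as bars; open diamonds give the value after median ratio scaling and the dashed line the median of all genes tested. With the deposited FPKM, 22 points lie above 0 and 8 below, and with median ratio scaling SQLE moves from -0.08 to 0.27.

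Since most of the 30 genes moved together, their promoters were searched for the motifs of the factors known to act on them. The table of RefSeq promoters (GRCh38.p14, 250 bases before to 50 bases after a start) held 35 windows for 26 of the 30 genes. Windows of 1 gene can overlap, as for ACLY and SC5D, so the same box can count in more than 1 window. The search covered 4 motifs on both strands, none of which contains another. The NF-Y box CCAAT, bound by the nuclear factor Y complex that works beside SREBPs on sterol genes, was in 24 of 35 windows (68.6%), against 34.6% of all 35116 windows and 34.9% of the 14484 windows of tested genes. The GC box GGGCGG, bound by Sp-family factors, was in 88.6% of the windows, against 45% of all windows and 67.3% of those of tested genes. The sterol regulatory element TCACNCCAC was in 1 window, that of SREBF2, against 1.13% of all windows. The E-box CACGTG was in 14.3% of the windows, against 7.26% of all windows and 9.31% of those of tested genes. Counted by gene, CCAAT was in 20 of the 26, the GC box in 25 and the E-box in 4. A share by gene was not computed for all genes.

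The windows of 3 genes that rose and of the gene that fell most are shown, on the strand of the gene, with CCAAT (or its reverse complement ATTGG) and the sterol regulatory element in capitals. They lie at chr5:111512486-111512785 (STARD4, minus strand), chr16:88663042-88663341 (MVD, minus strand), chr22:41832855-41833154 (SREBF2, plus strand) and chr4:110198566-110198865 (ELOVL6, minus strand).
STARD4: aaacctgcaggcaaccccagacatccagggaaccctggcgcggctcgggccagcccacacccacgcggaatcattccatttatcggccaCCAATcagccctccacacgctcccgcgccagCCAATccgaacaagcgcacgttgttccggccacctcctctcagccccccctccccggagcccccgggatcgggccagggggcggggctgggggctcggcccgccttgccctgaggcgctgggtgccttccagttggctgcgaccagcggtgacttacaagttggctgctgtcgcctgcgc
MVD: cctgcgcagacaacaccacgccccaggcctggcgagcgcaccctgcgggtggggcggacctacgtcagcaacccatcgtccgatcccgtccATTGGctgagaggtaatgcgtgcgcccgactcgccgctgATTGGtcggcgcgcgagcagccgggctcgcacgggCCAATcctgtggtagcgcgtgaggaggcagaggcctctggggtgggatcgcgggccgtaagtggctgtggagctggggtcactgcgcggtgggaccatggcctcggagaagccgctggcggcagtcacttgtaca
SREBF2: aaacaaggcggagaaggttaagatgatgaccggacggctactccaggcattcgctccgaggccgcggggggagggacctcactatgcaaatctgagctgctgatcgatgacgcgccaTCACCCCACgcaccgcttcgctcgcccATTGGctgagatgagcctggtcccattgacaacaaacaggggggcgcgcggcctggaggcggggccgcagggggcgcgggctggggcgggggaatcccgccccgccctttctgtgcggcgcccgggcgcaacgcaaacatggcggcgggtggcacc
ELOVL6: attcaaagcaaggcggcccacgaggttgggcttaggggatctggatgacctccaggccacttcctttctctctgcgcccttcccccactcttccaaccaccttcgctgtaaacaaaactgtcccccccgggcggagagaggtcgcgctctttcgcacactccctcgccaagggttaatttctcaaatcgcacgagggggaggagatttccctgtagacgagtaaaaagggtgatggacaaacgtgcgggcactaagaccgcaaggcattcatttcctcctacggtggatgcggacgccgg
STARD4 carried CCAAT 161 and 130 bases before its start, and MVD 159, 120 and 85 bases before its start. SREBF2 carried the sterol regulatory element 133 bases and CCAAT 106 bases before its start. ELOVL6, whose level fell most among the 30 genes, had no CCAAT in this window, and neither did SCAP, which also fell. Presence of the box did not follow direction in every gene, since IDI1, TM7SF2 and SC5D fell and have it, and CYP51A1, FADS1, PMVK and SREBF1 rose and lack it. A match of letters is a description of the window only.

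The mevalonate steps rose nearly as a block, with 6 of 7 genes higher and a median log2 fold change of 0.75. The exception was IDI1, which fell. MVD, which makes isopentenyl diphosphate by decarboxylation (chr16:88718343-88729569, hg19, minus strand), was at 5.17, 4.51 and 5.11 FPKM in control and at 29.5, 26.6 and 27.1 FPKM in shSETD2 libraries. It rose 5.63 times, the most of any enzyme in the list, with a log2 fold change of 2.28 (95% interval 2.12 to 2.44, adjusted p = 4.04e-07, limma). IDI1, the isomerase that acts on the product of MVD (chr10:1085848-1095110, minus strand), was at 19.3, 19.7 and 19.2 FPKM in control and at 13.6, 14.8 and 13.8 FPKM in shSETD2 libraries. Its log2 fold change was -0.44 (adjusted p = 0.000161, limma), and with median ratio scaling it was -0.10 and no longer passed the test (adjusted p = 0.0774). As neighbours in the pathway these genes thus changed rank, and the ratio of MVD to IDI1 went from 0.254 ± 0.0226 to 1.98 ± 0.186.

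The first enzymes of the pathway moved together. ACAT2, the cytosolic thiolase that joins acetyl-CoA units (chr6:160181360-160200087, plus strand), was at 7.95, 8.53 and 8.29 FPKM in control and at 22.3, 23.4 and 22.9 FPKM in shSETD2 libraries. HMGCS1, the HMG-CoA synthase (chr5:43289497-43313614, minus strand), was at 15.9, 15.4 and 17.1 and at 38.0, 42.8 and 37.7 FPKM. The groups were well separated for both genes, with log2 fold changes of 1.37 for ACAT2 and 1.24 for HMGCS1 (adjusted p = 6.59e-07 and 5.64e-06, limma). The phosphorylation steps rose less. PMVK, phosphomevalonate kinase, went from 12.7 ± 0.362 to 19.1 ± 1.35 FPKM (log2 fold change 0.56). MVK, mevalonate kinase, was at 2.41, 2.45 and 1.63 FPKM in control and at 4.92, 2.93 and 4.42 FPKM in shSETD2 libraries, a wide spread within both groups that gave the largest adjusted p among the genes that rose (0.0134, limma). FDPS, farnesyl diphosphate synthase, which supplies both sterols and protein prenylation, went from 17.5 ± 0.287 to 30.1 ± 0.784 FPKM (log2 fold change 0.75).

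At the entry to the sterol branch the changes were small until the ring was closed. FDFT1, squalene synthase, went from 9.18 ± 0.157 to 11.0 ± 0.465 FPKM, a rise of 1.20 times (log2 fold change 0.24, adjusted p = 0.00321, limma). SQLE, squalene epoxidase, a slow step of the sterol branch, was at 26.2, 27.1 and 27.8 FPKM in control and at 25.7, 25.6 and 25.4 FPKM in shSETD2 libraries. Its control libraries all lay above its shSETD2 libraries by a narrow margin, and its log2 fold change of -0.08 (95% interval -0.17 to 0.02) did not pass the test (adjusted p = 0.108, limma). Its direction depended on scaling, with 0.27 (adjusted p = 0.000768, limma) under median ratio scaling and -0.28 (adjusted p = 0.000527, limma) under quantile normalization. LSS, lanosterol synthase, which closes the sterol rings, was at 8.34, 7.47 and 7.24 FPKM in control and at 21.4, 17.7 and 18.4 FPKM in shSETD2 libraries. It rose 2.49 times, with a log2 fold change of 1.21 (adjusted p = 2.11e-05, limma).

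After lanosterol 6 of 8 genes rose and 2 fell, with a median log2 fold change of 0.68. CYP51A1, the lanosterol demethylase (chr7:91741465-91772266, minus strand), was at 27.4, 27.7 and 27.3 FPKM in control and at 53.9, 61.9 and 55.3 FPKM in shSETD2 libraries, the highest level of any sterol enzyme of the list in that group. DHCR7, the reductase that turns dehydrocholesterol into cholesterol, was at 11.8, 10.3 and 8.42 FPKM and at 33.3, 22.3 and 31.9 FPKM. Both rose, CYP51A1 by a log2 fold change of 1.02 (standard error 0.0572) and DHCR7 by 1.42 with a wider standard error of 0.179. EBP, the sterol isomerase, was at 7.14, 8.32 and 4.82 FPKM in control and at 11.2, 15.7 and 17.5 FPKM in shSETD2 libraries, and rose by 1.03 (adjusted p = 0.00475, limma). The genes of demethylation at the sterol ring rose by smaller amounts, from 9.74 ± 0.935 to 18.4 ± 0.875 FPKM for MSMO1, the methylsterol oxidase, and from 12.7 ± 0.849 to 18.5 ± 0.349 FPKM for NSDHL, the decarboxylating dehydrogenase. HSD17B7, the ketosteroid reductase of the same step, went from 2.49 ± 0.42 to 3.57 ± 0.0493 FPKM (log2 fold change 0.40, adjusted p = 0.00649, limma).

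The genes that fell after lanosterol were a reductase and a desaturase. TM7SF2, a sterol reductase (chr11:64879317-64883856, plus strand), was at 3.91, 4.03 and 3.40 FPKM in control and at 1.82, 1.43 and 1.32 FPKM in shSETD2 libraries. It fell by 0.92 on the log2 scale (adjusted p = 0.000136, limma). SC5D, the sterol desaturase that acts before DHCR7, was at 7.60, 6.74 and 7.64 FPKM and at 4.20, 4.07 and 5.22 FPKM, and fell by 0.60 (adjusted p = 0.00112, limma). LBR, the lamin B receptor, which carries the same reductase activity as TM7SF2 and was not among the 30 genes, also fell, from 30.5 ± 0.94 to 16.6 ± 0.754 FPKM (log2 fold change -0.84).

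Of the 5 genes of control and transport, 3 rose, 1 fell and 1 did not pass the test. STARD4, a carrier that moves cholesterol between membranes (chr5:110831731-110848288, minus strand), was at 4.41, 4.40 and 4.20 FPKM in control and at 29.5, 35.3 and 29.4 FPKM in shSETD2 libraries. Its rise of 7.23 times was the largest among the 30 genes, with a log2 fold change of 2.60 (95% interval 2.40 to 2.79, adjusted p = 4.91e-07, limma). SREBF1, which encodes the SREBP that favours fatty acid genes (chr17:17713713-17740316, minus strand), was at 4.25, 4.12 and 4.29 FPKM and at 19.7, 17.6 and 19.6 FPKM. SREBF2, which encodes the SREBP that favours sterol genes (chr22:42229083-42303312, plus strand), was at 22.0 FPKM in each control library and at 34.4, 31.4 and 34.2 FPKM in shSETD2 libraries. Both rose, by log2 fold changes of 1.93 for SREBF1 and 0.58 for SREBF2 (adjusted p = 4.44e-07 and 3.88e-05, limma), and the ratio of SREBF1 to SREBF2 went from 0.192 ± 0.00406 to 0.568 ± 0.00739.

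The transcripts of SCAP and INSIG1, whose proteins escort or hold the SREBPs, were not called higher. SCAP, the escort that carries SREBPs to the Golgi (chr3:47455184-47518616, minus strand), was at 19.0, 18.8 and 19.1 FPKM in control and at 10.7, 9.28 and 9.83 FPKM in shSETD2 libraries, and fell by 0.87 on the log2 scale (adjusted p = 1.38e-05, limma). The ratio of SREBF2 to SCAP accordingly went from 1.16 ± 0.00851 to 3.36 ± 0.133. SCAP lies on the same chromosome and strand as SETD2, and its lowest deposited position is 249727 bases above the highest of SETD2. INSIG1, which retains SCAP in the endoplasmic reticulum and is itself a sterol-responsive gene (chr7:155089486-155101945, plus strand), was at 50.8, 48.6 and 26.8 FPKM in control and at 38.5, 22.3 and 23.9 FPKM in shSETD2 libraries. The groups overlapped, because control library 3 was low and shSETD2 library 1 high, and the log2 fold change of -0.55 (95% interval -1.28 to 0.19) did not pass the test (adjusted p = 0.141, limma). Without control library 3 it was -0.84 (adjusted p = 0.0236, limma).

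In the fatty acid branch 5 of 7 genes rose, 1 fell and 1 did not pass the test, with a median log2 fold change of 0.28. FASN, fatty acid synthase (chr17:80036209-80056208, minus strand), was at 45.5, 45.4 and 43.6 FPKM in control and at 111, 101 and 114 FPKM in shSETD2 libraries. It rose by 1.25 on the log2 scale (adjusted p = 1.93e-06, limma). ACLY, ATP citrate lyase, which supplies cytosolic acetyl-CoA, went from 69.3 ± 2.47 to 84.7 ± 1.6 FPKM, and ACACA, acetyl-CoA carboxylase, from 14.6 ± 0.327 to 18.0 ± 0.327 FPKM. FASN thus moved more than the enzyme that feeds it, and the ratio of FASN to ACACA went from 3.06 ± 0.138 to 6.02 ± 0.441. SCD, the stearoyl-CoA desaturase, was the most abundant of the 30 genes, at 106, 109 and 103 FPKM in control and 123, 122 and 125 FPKM in shSETD2 libraries. Its rise of 1.16 times (log2 fold change 0.22, adjusted p = 0.0008, limma) was the smallest among the genes called. Under quantile normalization neither SCD (0.02, adjusted p = 0.65, limma) nor ACLY (0.03, adjusted p = 0.436, limma) passed the test.

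ELOVL6, which elongates palmitate (chr4:110967002-111120355, minus strand), was at 7.80, 7.12 and 7.69 FPKM in control and at 1.71, 1.90 and 1.66 FPKM in shSETD2 libraries. It fell by 1.63 on the log2 scale (95% interval -1.78 to -1.48, adjusted p = 1.17e-06, limma), the only one of the 30 genes to fall with a log2 fold change of -1 or below, against 18.7% of all genes. The ratio of SCD to ELOVL6 went from 14.1 ± 1.02 to 70.4 ± 5.28. FADS1, a desaturase of polyunsaturated fatty acids (chr11:61567097-61596790, minus strand), was at 9.94, 9.09 and 9.42 FPKM and at 21.4, 22.4 and 22.0 FPKM, and rose by 1.13 (adjusted p = 1.93e-06, limma). FADS2, the desaturase of the preceding step (chr11:61560452-61634826, plus strand), was at 3.28, 2.31 and 2.51 FPKM in control and at 1.88, 2.26 and 2.00 FPKM in shSETD2 libraries. Its control libraries lay just above its shSETD2 libraries, and its log2 fold change of -0.27 (95% interval -0.54 to -0.01) did not pass after adjustment (adjusted p = 0.0579, limma). Without control library 2 it was -0.35 (adjusted p = 0.0347, limma), and under quantile normalization it was 0.062 (adjusted p = 0.644). The ratio of FADS1 to FADS2 went from 3.57 ± 0.475 to 10.8 ± 0.785.

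Most of the 30 genes varied little between libraries of a group. The coefficient of variation had a median of 4.06% in control and 6.27% in shSETD2 libraries. It exceeded 20% for MVK, EBP and INSIG1 in control libraries, and for these genes and DHCR7 in shSETD2 libraries. In the control group library 3 was the low one for INSIG1, EBP and MVK alike. In the shSETD2 group the outlying library differed by gene. There library 2 was low for DHCR7 and MVK, and library 1 was low for EBP and high for INSIG1. Leaving out any 1 library left 22 of the 30 genes called higher and 5 or 6 called lower.

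**Figure D3:**
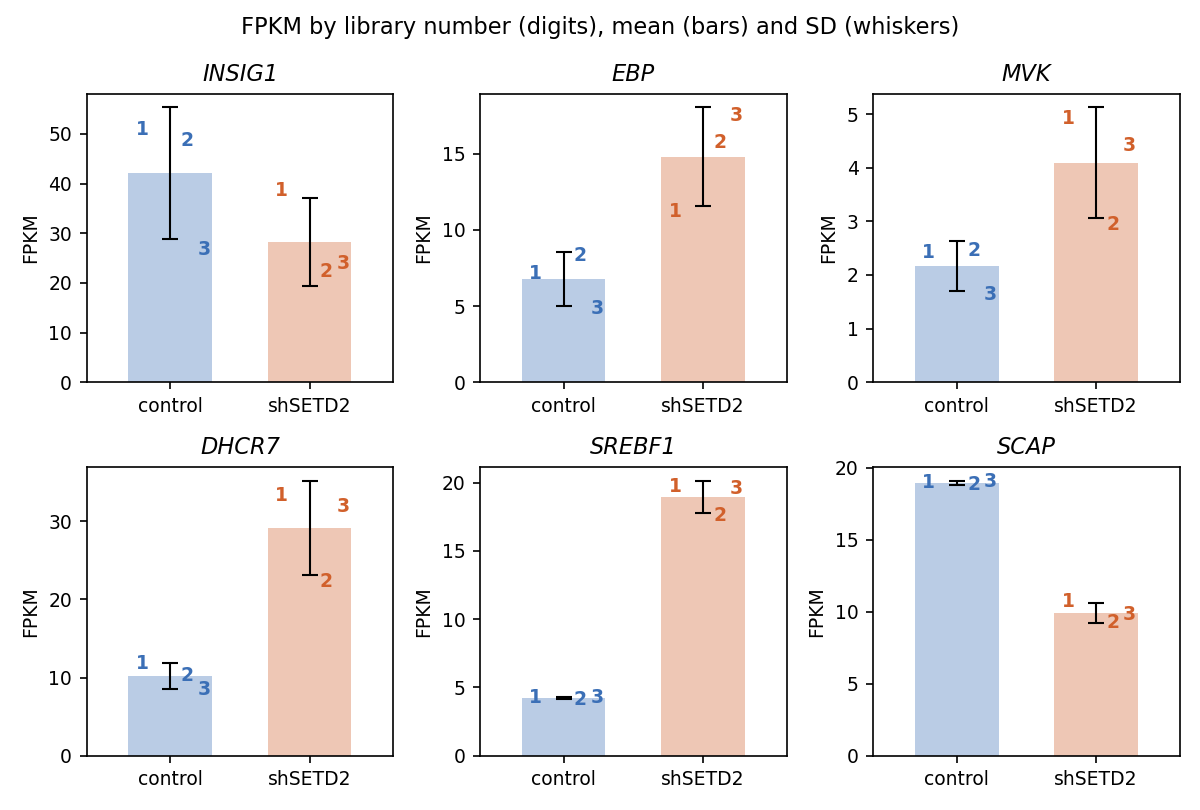
FPKM of INSIG1, EBP, MVK and DHCR7, whose libraries spread most, and of SREBF1 and SCAP for contrast; digits mark the library number at its value, bars are means of 3 libraries and whiskers SD. Control library 3 sits at 26.8 FPKM for INSIG1, among the shSETD2 values of 22.3 to 38.5, while no library of SREBF1 or SCAP comes near the other group.

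Of the 30 genes, 7 share bases with another listed gene. FADS1 lies wholly within the deposited locus of FADS2 on the opposite strand, and FADS2 also overlaps FEN1 on the same strand by 4265 bases. ACAT2 overlaps SOD2 by 2202 bases on the opposite strand, and SOD2, the mitochondrial superoxide dismutase, went from a mean of 2.54 to 22.2 FPKM. It also overlaps TCP1, a chaperonin subunit, by 558 bases, and TCP1 fell from 45.0 to 34.9 FPKM. MVK overlaps MMAB by 620 bases, and MMAB, a cobalamin enzyme, went the other way, from 4.57 to 2.67 FPKM. LSS, SREBF1 and TM7SF2 overlap AP001468.1, RAI1 and VPS51. The library kit keeps strand per the labels, but whether the counting used it is not given in the sources used here, so the share of reads from these neighbours was not tested.

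Genes beside the 30 in the same pathways gave a mixed picture, to be read against the 26.8% of all genes called higher and 51.8% called lower. Of 9 other sterol synthesis genes tested, 5 rose and 3 fell, with a median log2 fold change of 0.54. GGPS1, which diverts farnesyl diphosphate to geranylgeranyl diphosphate, fell from 16.2 ± 1.04 to 6.02 ± 0.667 FPKM, in contrast to FDPS. CYB5R3, the reductase that passes electrons to the sterol oxidases, rose with a log2 fold change of 0.63, and ERG28, a scaffold of the demethylation enzymes, with 0.55. Of 10 SREBP processing genes, 7 fell (70% against 51.8% of all genes) and 1 rose, with a median of -0.44. This list joins genes that process SREBPs with genes that retain or degrade them, so its counts give no direction of SREBP activity. With median ratio scaling 5 of these fell and 3 rose, against 38.3% and 37.7% of all genes. The median was then -0.13, beside -0.01 over all genes. MBTPS2, the protease that makes the final cut of SREBPs, fell from 8.32 ± 0.324 to 1.67 ± 0.03 FPKM (log2 fold change -1.80, adjusted p = 3.68e-07, limma). ERLIN2, PAQR3 and FBXW7 fell by 0.87, 0.59 and 0.58 on the log2 scale.

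Sterol handling and lipid storage moved mostly upward. Of 15 genes of sterol uptake, storage and efflux, 9 rose and 4 fell, with a median log2 fold change of 0.36. NPC1, which exports cholesterol from lysosomes, rose from 7.50 ± 0.182 to 20.2 ± 1.17 FPKM, and MYLIP, the ligase that degrades lipoprotein receptors, fell from 7.06 ± 0.752 to 2.06 ± 0.189 FPKM. VLDLR, a lipoprotein receptor, fell from 2.29 ± 0.146 to 0.386 ± 0.0727 FPKM, and ABCG1, a sterol exporter at 1.18 ± 0.213 FPKM in control, was listed at 0 in shSETD2 libraries. Of 13 genes of triglyceride synthesis and lipid droplet coats, 8 rose and 3 fell, with a median of 0.28. The lipid droplet coats PLIN3 and PLIN2 rose from 6.36 ± 0.193 to 29.4 ± 8.15 FPKM and from 3.57 ± 0.308 to 14.5 ± 0.178 FPKM. LPIN1, a phosphatidate phosphatase, rose with a log2 fold change of 1.33, and GPAM, the mitochondrial acyltransferase that starts glycerolipid synthesis, fell by 1.25.

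Fatty acid supply, elongation and oxidation genes split by gene. Of 17 supply and elongation genes, 10 rose and 6 fell, with a median log2 fold change of 0.60. ELOVL2, an elongase of polyunsaturated fatty acids, was at 9.01, 9.15 and 10.1 FPKM in control and listed at 0 in all shSETD2 libraries, so that it was lower together with ELOVL6. MLXIPL, the carbohydrate-responsive factor that also drives lipogenic genes, went from 4.05 ± 0.23 to 0.00454 FPKM, opposite to SREBF1. ACSL4 and FADS3, an acyl-CoA synthetase and a desaturase relative, rose with log2 fold changes of 1.68 and 1.64. Of 14 fatty acid oxidation genes tested, 9 fell (64.3% against 51.8% of all genes) and 3 rose, with a median of -0.54 beside the -0.29 of all genes. With median ratio scaling 6 of these fell, against 38.3% of all genes, and 4 rose, against 37.7%, with a median of -0.21. HADH and ACADM, dehydrogenases of mitochondrial oxidation, fell by 1.44 and 0.90, ACADL went from a mean of 1.11 to 0.00541 FPKM, and SLC25A20, the carnitine carrier, rose by 0.79.

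**Figure D4:**
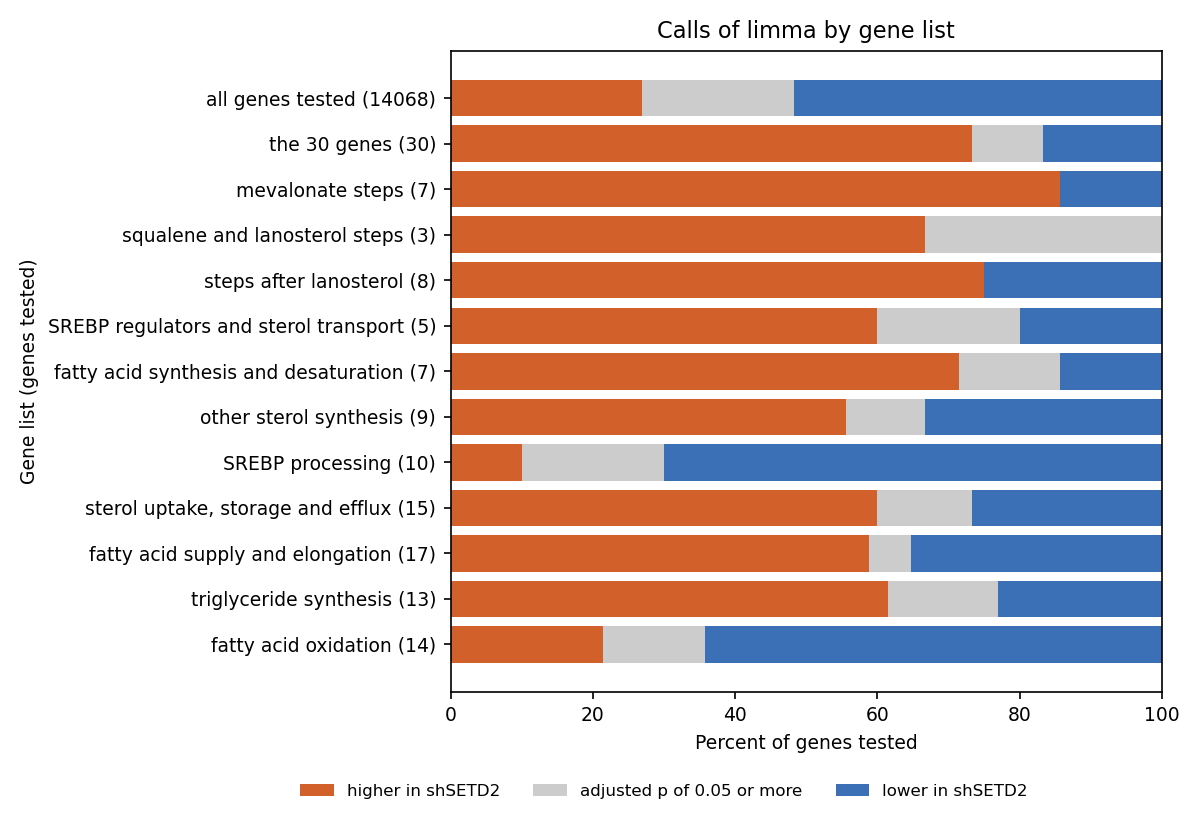
Percent of tested genes called higher (orange), called lower (blue) or not passing the limma test (grey), for all genes, the 30 genes, their 5 roles and the related lists, with the number of genes tested in brackets. The 30 genes have 73.3% higher and 16.7% lower, against 26.8% and 51.8% of all genes, and SREBP processing and fatty acid oxidation have 70% and 64.3% lower. With median ratio scaling these fall to 5 of 10 and 6 of 14 genes lower, with 3 and 4 genes higher. Of all genes, 38.3% were lower and 37.7% higher under that scaling. The SREBP processing list also holds genes that retain or degrade SREBPs, and the triglyceride synthesis list also holds the lipid droplet coats PLIN2 and PLIN3.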

How the data were processed

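RNA-seq was made from total RNA with a stranded library kit, and per the labels and methods reads were mapped to hg19 (GRCh37) with HISAT2 and quantified with Ballgown. The versions are not given in the sources used here. The authors deposited FPKM per gene and library in a table of 15897 genes, and a second table repeats these FPKM for 15120 genes and adds the authors' fold changes and p-values, which were not used. FPKM holds no read counts, so depth is unknown and only the spread over 3 libraries gives precision.

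Of the listed genes, 14068 had an average of 0.5 FPKM or more over the 6 libraries and were tested. The values were put on the log2(FPKM + 1) scale and fitted with limma 3.58.1 (lmFit, then eBayes with trend) under R 4.3.3. Group was the only term, and p-values were adjusted by Benjamini-Hochberg over all genes tested, with a threshold of 0.05. Log2 fold changes come from that fit, in which the added 1 shrinks the change of low genes, and folds given as times are ratios of mean FPKM. A gene at 0 is called listed at 0. An exact permutation test of 1 gene over these groups gives p = 0.1 at the least. The fit was also run on simulated libraries in which few genes changed, as many upward as downward. That setting lacks the wide shift between these 2 groups, so it does not test the effect of scaling.

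The 30 genes and the related and marker lists were chosen with earlier results of these data known. All 30 genes are named, and of each related list up to 4 genes with the largest absolute log2 fold change past the threshold, and of the marker lists genes with the highest FPKM. Some genes that these rules cover are not reported here. Alternatives were pseudocounts of 0.1 and 0.01, no filter, a minimum average of 5 FPKM, upper quartile, median ratio and quantile scaling, no trend, a replicate block, and leaving out each library. Gene positions are those deposited (hg19), and promoter windows are from RefSeq (GRCh38.p14).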

Additional observations from a re-analysis of the deposited data

How the results depend on the processing

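Over 15 alternatives, 24 of the 30 genes kept their direction and their side of the threshold in each one that tested them, and 436 of 445 recomputed values did so. SQLE turned upward under upper quartile scaling (0.0074, adjusted p = 0.866, limma) and under median ratio scaling (0.27, adjusted p = 0.000768, limma), and FADS2 under quantile normalization (0.062, adjusted p = 0.644, limma). IDI1 lost its call under median ratio scaling, and ACLY and SCD lost theirs under quantile normalization. INSIG1 was called lower without control library 3, and FADS2 without control library 2. With a mean FPKM of at least 5, 3 of the 30 genes were lower, and of all genes 2401 were higher and 3246 lower, with fewer genes tested. The library numbers shared by the groups do not pair them (same-numbered deviations from the group means correlated at -0.0237, 0.0177 and -0.00766 across genes, and not every library correlated best with its own number). With a replicate block 22 of the 30 genes were higher and 5 lower, all genes had 3733 higher and 7243 lower, and SETD2 passed the test at the same log2 fold change of -0.58 (adjusted p = 0.0156, limma). Leaving out each library gave SETD2 values between -0.83 (without control library 2, adjusted p = 0.00648, limma) and -0.45 (without control library 1, adjusted p = 0.179, limma), and the test was also passed without shSETD2 library 3 (-0.73, adjusted p = 0.0418, limma). Under median ratio scaling SETD2 was at -0.25 (adjusted p = 0.377, limma), outside that range. The causes of these shifts were not tested. SREBP processing genes called higher numbered 1 in the report, 2 without control library 3 or shSETD2 library 1, under upper quartile scaling or with the replicate block, and 3 under median ratio scaling.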
